A study of Mus musculus with 18 samples.

Results

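Hox genes encode homeodomain transcription factors that stand in 4 clusters, and their transcripts were followed here across an allelic series of Tbx1 in the mouse embryo. The list held 38 Hox genes, and each was read at the probe set that is annotated with that gene alone and has the highest mean over the 18 arrays. Of these, 33 had such a probe set, out of 18193 genes with one. Hoxb8 and Hoxd4 occurred only on probe sets annotated with 2 genes, so no value is given for them, and Hoxa6, Hoxc11 and Hoxc12 had no annotated probe set. The 33 measured genes comprised 9 of cluster a on chromosome 6, 9 of cluster b on chromosome 11, 7 of cluster c on chromosome 15 and 8 of cluster d on chromosome 2. By paralogue number, which counts the position in the cluster, 10 were anterior (1 to 4), 9 central (5 to 8) and 14 posterior (9 to 13). The genes were chosen by name and not by their values.

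Each array held the RNA of 1 whole embryo of embryonic day 9.5, on a mixed 129SvEv and C57Bl/6 background, with 2 embryos labelled as biological replicates per genotype. The 9 genotypes combined the wild-type allele (+), the null allele (-) and the alleles Neo and Neo2, which are known as hypomorphic alleles. WT embryos carried 2 wild-type alleles. Neo2/+, Neo/+ and +/- embryos carried 1, and -/-, Neo/Neo, Neo2/-, Neo2/Neo and Neo2/Neo2 embryos carried 0. The alleles are germline alleles, so every tissue of an embryo had the same genotype. The sources used here name no litter and no somite count, and the p-values measure the spread between these embryos. In RNA of whole embryos, fewer cells of a type and less RNA per cell cannot be told apart.

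Hox genes are switched on in the order of their position in the cluster, the anterior ones first, and their products give hindbrain segments, neural crest, vertebrae and limbs their identity along the body axis. Retinoic acid activates anterior genes, Cdx proteins activate the genes of the trunk, and Polycomb proteins keep genes silent where they are not used. Pbx and Meis proteins bind DNA together with Hox proteins. Tbx1, a T-box factor of the pharyngeal arches, acts in tissue that lies beside and below the Hox-patterned hindbrain, and Hoxa3 is itself needed for the thymus and parathyroid that arise there.

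Array medians lay between 5.73 and 5.94 on the log2 scale and the median correlation of an array with the others between 0.975 and 0.995. The lowest belonged to +/- replicate 1 (0.975) and the next to -/- replicate 1 (0.985), and results that change without these 2 arrays are given both ways. The Tbx1 signal was 6.59 ± 0.06 in WT (SD, n = 2), 5.07 ± 0.13 in -/-, 5.66 ± 0.02 in Neo2/Neo and 6.62 ± 0.00 in Neo2/Neo2. It lay between 6.13 and 6.61 in the 6 embryos with 1 wild-type allele, at 5.61 and 5.81 in Neo2/- and at 5.04 and 5.20 in Neo/Neo. The Neo2/Neo2 embryos thus stood at the level of WT, and whether the probe set reads a part of the transcript that the Neo2 allele alters was not tested. By their sex-linked transcripts 9 embryos were female and 9 male, and both WT and both -/- embryos were female, while both Neo2/Neo2 embryos were male. Markers of the embryo proper had mean signals well inside the range of the arrays, for example from 8.85 to 12.30 for the 4 heart genes. The 3 measured markers of placenta and decidua had mean signals of 3.05 to 3.46.

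Among the Hox genes, the 2 of paralogue group 1 varied most across the 18 embryos. The SD over the 18 embryos was below 0.3 for 30 of the 33 genes (90.9%, against 88.3% of all 45037 probe sets), with a median of 0.20 against 0.16 for all probe sets. Hoxb1 had the largest SD, 0.61, which lay at percentile 98.4 of all probe sets. Hoxd1 followed with 0.52 (percentile 97.2), then Hoxb9 with 0.34 (percentile 91.6) and Hoxc10 with 0.29. Hoxc5 had the smallest, 0.10. Mean signals ran from 4.10 to 9.46, and 5 genes, Hoxa13, Hoxb7, Hoxb13, Hoxc13 and Hoxd12, had means under 5, where RMA values, which carry no detection call, cannot be told from background.

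**Figure D1:**
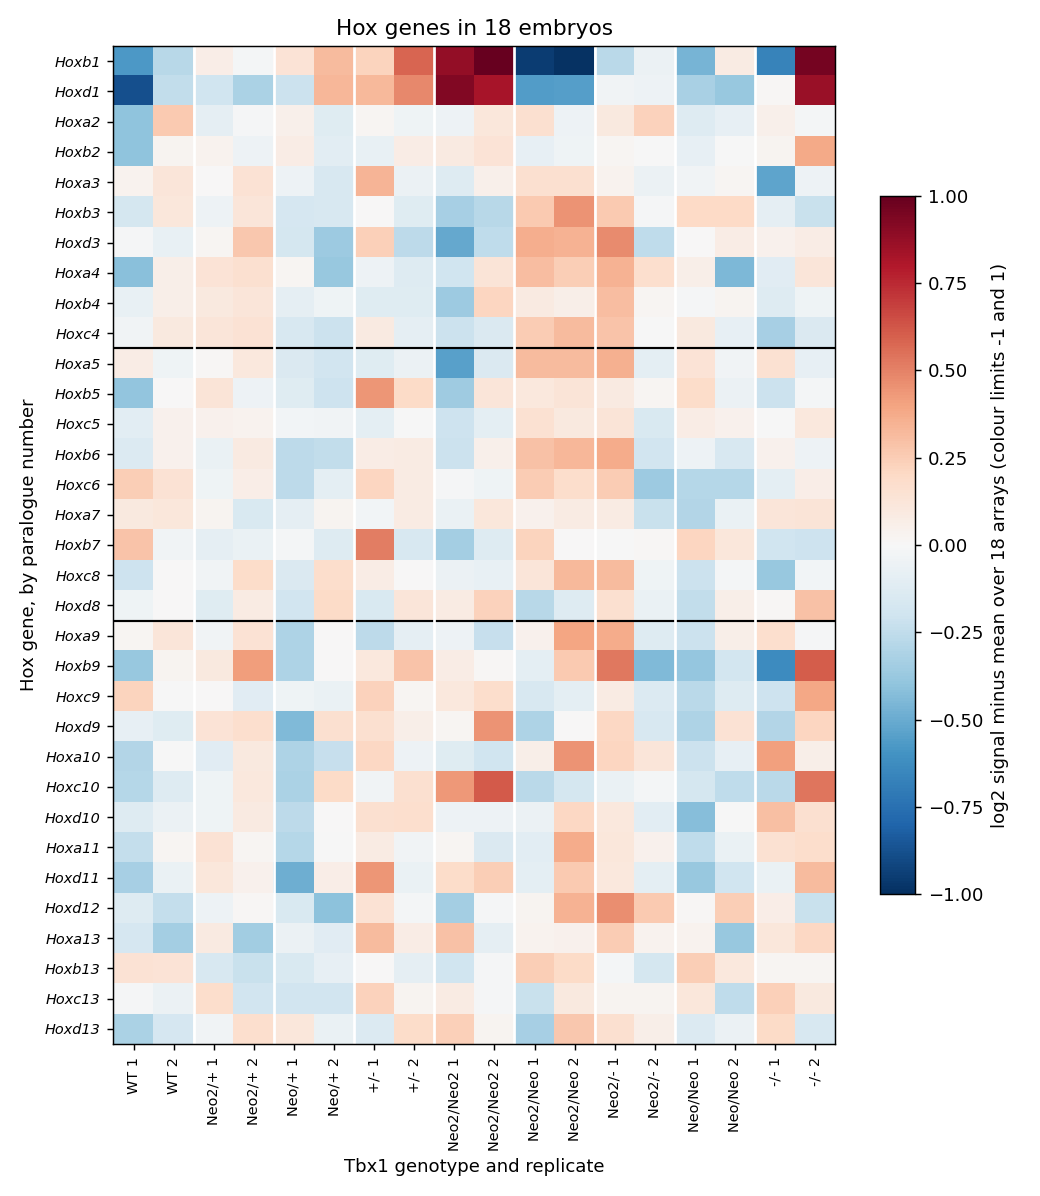
Log2 signal of the 33 measured Hox genes (rows, by paralogue number, with lines between the anterior, central and posterior classes) in the 18 embryos (columns, by Tbx1 genotype and replicate), each minus the gene's mean over the 18 arrays. Hoxb1 and Hoxd1 in the top rows span the widest range, with SDs of 0.61 and 0.52, and are high in both Neo2/Neo2 embryos and in -/- replicate 2, and low in both Neo2/Neo embryos.

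No Hox gene was called in the test for any difference between the 9 genotypes. In limma's moderated F-test over the 9 genotypes, 0 of 33 passed an adjusted p of 0.05, where 0.275% of all probe sets did. At an unadjusted p under 0.05 there were 8 Hox genes (24.2%, against 13.7% of all probe sets). Hoxd1 came nearest, with an adjusted p of 0.101. Without +/- replicate 1 and -/- replicate 1, 2 Hox genes passed, Hoxb1 (adjusted p = 0.00444) and Hoxd1 (adjusted p = 0.0185), where 2.77% of all probe sets did; this leaves 1 embryo each in +/- and -/-, assumed to vary like the other groups. Leaving out single arrays gave 0 to 2. It gave 2 (6.06%), Hoxb1 and Hoxd1, without -/- replicate 1, where 1.06% of all probe sets passed, and without -/- replicate 2, where 6.77% did. It gave 2, Hoxb3 and Hoxd1, without +/- replicate 2, where 10.6% did, so only the first of these counts lies above its background.

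Hoxb1 and Hoxd1 are the listed genes of paralogue group 1, which is expressed earliest in the gastrula and in the hindbrain. Hoxb1 marks the fourth hindbrain segment, where it maintains its own expression together with Pbx proteins. The log2 signal of Hoxb1 was 6.77 and 7.06 in WT, 7.41 and 7.32 in Neo2/+, 7.48 and 7.66 in Neo/+ and 7.56 and 7.92 in +/-. In embryos without a wild-type allele it was 8.22 and 8.38 in Neo2/Neo2, 6.39 and 6.35 in Neo2/Neo, 7.07 and 7.28 in Neo2/-, 6.88 and 7.42 in Neo/Neo and 6.67 and 8.30 in -/-. Both Neo2/Neo2 embryos and 1 of the -/- embryos were the 3 highest of 18, both Neo2/Neo embryos were the 2 lowest, and the -/- embryos differed from each other by 1.63, nearly the whole range of 2.03.

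Hoxd1, known in the mouse for its part in sensory neurons, had signals of 5.12 and 5.75 in WT, 5.80 and 5.68 in Neo2/+, 5.78 and 6.33 in Neo/+ and 6.32 and 6.48 in +/-. Without a wild-type allele they were 6.92 and 6.82 in Neo2/Neo2, 5.44 and 5.45 in Neo2/Neo, 5.96 and 5.95 in Neo2/-, 5.67 and 5.62 in Neo/Neo and 6.01 and 6.86 in -/-. The 3 highest embryos were those of Hoxb1, and the lowest was WT replicate 1. The genotype means of Hoxd1 spanned 1.43, from 5.44 ± 0.44 in WT (SD, n = 2) and 5.44 ± 0.00 in Neo2/Neo to 6.87 ± 0.07 in Neo2/Neo2. Those of Hoxb1 spanned 1.93, from 6.37 ± 0.03 in Neo2/Neo to 8.30 ± 0.11 in Neo2/Neo2.

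**Figure D2:**
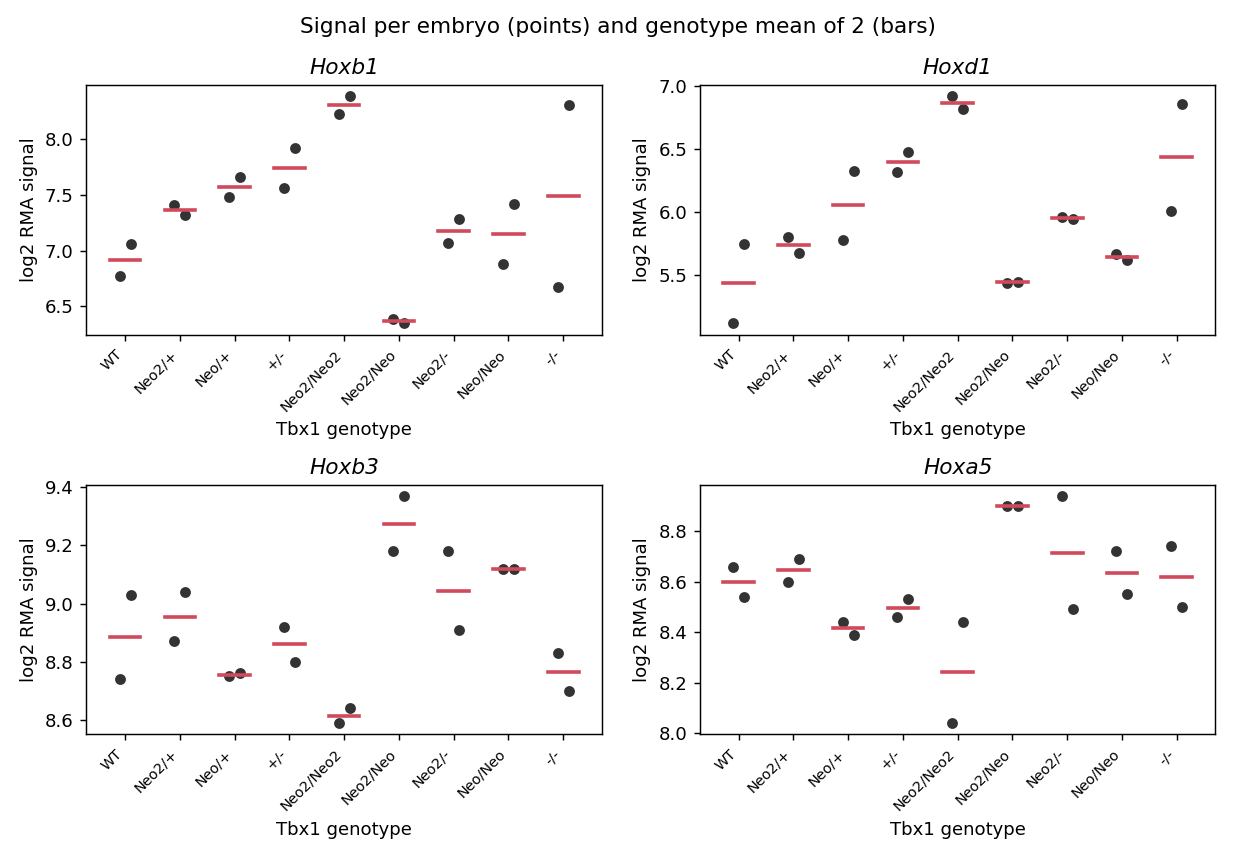
Log2 RMA signal of Hoxb1, Hoxd1, Hoxb3 and Hoxa5 in each embryo (points) by Tbx1 genotype, with the mean of the 2 embryos as a bar. Hoxb1 and Hoxd1 have their highest genotype mean in Neo2/Neo2 (8.30 and 6.87), where Hoxb3 and Hoxa5 have their lowest (8.61 and 8.24).

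The proximal promoters of these genes are shown because the pair moved together while Hoxa5 lay the other way. The 250 bases before the start of each gene were taken from RefSeq on the build GRCm38.p6, in which 19 of the 33 measured genes were matched by 21 promoters. Capitals mark a match to the Pbx-Hox motif TGATNNAT on either strand. Hoxb1 lies on the plus strand of chr11:96365508-96365757, Hoxd1 on the plus strand of chr2:74762730-74762979 and Hoxa5 on the minus strand of chr6:52204588-52204837.
Hoxb1: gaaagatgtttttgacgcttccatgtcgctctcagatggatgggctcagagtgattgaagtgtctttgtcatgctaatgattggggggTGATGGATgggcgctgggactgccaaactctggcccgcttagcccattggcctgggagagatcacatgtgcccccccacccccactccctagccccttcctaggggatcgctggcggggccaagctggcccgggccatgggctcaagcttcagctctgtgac
Hoxd1: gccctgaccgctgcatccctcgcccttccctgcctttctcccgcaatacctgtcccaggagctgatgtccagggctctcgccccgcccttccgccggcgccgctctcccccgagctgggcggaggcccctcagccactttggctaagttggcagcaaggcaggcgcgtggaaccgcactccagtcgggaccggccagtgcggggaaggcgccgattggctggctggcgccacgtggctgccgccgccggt
Hoxa5: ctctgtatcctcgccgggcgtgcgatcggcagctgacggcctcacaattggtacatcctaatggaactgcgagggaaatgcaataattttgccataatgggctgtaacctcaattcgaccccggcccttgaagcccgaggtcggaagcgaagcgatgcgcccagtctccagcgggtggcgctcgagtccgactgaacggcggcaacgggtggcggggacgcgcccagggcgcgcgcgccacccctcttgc
The Hoxb1 window holds the 8 letters TGATGGAT at 162 to 155 bases before the start, and those of Hoxd1 and Hoxa5 hold no match. The GC content was 59.2%, 71.6% and 63.6%. Over both strands TGATNNAT was found in 3 of the 21 member promoters (Hoxb1, Hoxa2 and Hoxd11) and in 7.68% of 32851 promoters. The Cdx motif TTTATNG was in 0 of the 21 and in 9.81% of all, and the Meis motif TGACAG in 2 (Hoxa2 and Hoxa3) and in 15.9%. The retinoic acid receptor half-site AGGTCA was in 5 (Hoxb4, Hoxc4, Hoxd3, Hoxd8 and Hoxd10) and in 14% of all. None of the 4 motifs was found in the windows of Hoxd1 and Hoxa5, and no entry was found for Hoxb3 and Hoxc10. A match is a run of letters and says nothing of binding.

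The other anterior genes varied less. Hoxa2, which gives the second pharyngeal arch its identity, had signals of 6.67 and 7.33 in WT, 6.98 and 7.06 in Neo2/+, 7.12 and 6.95 in Neo/+, 7.09 and 7.03 in +/-, 7.02 and 7.18 in Neo2/Neo2, 7.23 and 7.02 in Neo2/Neo, 7.17 and 7.30 in Neo2/-, 6.94 and 6.99 in Neo/Neo and 7.12 and 7.05 in -/-. Its lowest and highest values were both WT embryos, 0.66 apart, so the WT pair spanned the values of every other genotype. For Hoxb2, a partner gene of the hindbrain, values ran from 8.29 in WT replicate 1 to 9.07 in -/- replicate 2. Hoxa3, which acts in the posterior pharyngeal arches, read 6.91 and 7.0 in WT, 6.88 and 7.02 in Neo2/+, 6.83 and 6.72 in Neo/+, 7.22 and 6.82 in +/-, 6.75 and 6.93 in Neo2/Neo2, 7.04 and 7.04 in Neo2/Neo, 6.91 and 6.82 in Neo2/-, 6.84 and 6.90 in Neo/Neo and 6.35 and 6.83 in -/-. The -/- replicate 1 array, which stands apart from the others, gave its lowest value, and the remaining 17 embryos lay between 6.72 and 7.22.

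Hoxb3, expressed in the posterior hindbrain, had signals of 8.74 and 9.03 in WT, 8.87 and 9.04 in Neo2/+, 8.75 and 8.76 in Neo/+, 8.92 and 8.80 in +/-, 8.59 and 8.64 in Neo2/Neo2, 9.18 and 9.37 in Neo2/Neo, 9.18 and 8.91 in Neo2/-, 9.12 and 9.12 in Neo/Neo and 8.83 and 8.70 in -/-. The order ran against that of Hoxb1, with the Neo2/Neo2 embryos the 2 lowest of 18 and Neo2/Neo replicate 2 the highest. Hoxd3, a gene of the neck vertebrae that is named here after its values were seen, ran from 6.15 and 6.41 in Neo2/Neo2 to 7.03 and 7.01 in Neo2/Neo, with 7.14 in Neo2/- replicate 1. Hoxc4, active from the neck region down, gave 8.50 and 8.63 in WT, 8.65 and 8.68 in Neo2/+, 8.37 and 8.32 in Neo/+, 8.62 and 8.44 in +/-, 8.32 and 8.39 in Neo2/Neo2, 8.79 and 8.85 in Neo2/Neo, 8.82 and 8.53 in Neo2/-, 8.63 and 8.45 in Neo/Neo and 8.20 and 8.39 in -/-. Its Neo2/Neo embryos lay above its Neo2/Neo2 embryos, and -/- replicate 1 was the lowest. Hoxa4 lay between 6.04 and 6.84 and Hoxb4 between 7.05 and 7.72.

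Among the central genes, Hoxa5, needed for lung and lower neck, had signals of 8.66 and 8.54 in WT, 8.60 and 8.69 in Neo2/+, 8.44 and 8.39 in Neo/+, 8.46 and 8.53 in +/-, 8.04 and 8.44 in Neo2/Neo2, 8.90 and 8.90 in Neo2/Neo, 8.94 and 8.49 in Neo2/-, 8.72 and 8.55 in Neo/Neo and 8.74 and 8.50 in -/-. Both Neo2/Neo embryos were at 8.90, and Neo2/Neo2 replicate 1 was the lowest of 18. Hoxb5, a gene of trunk neural tube and gut, read 6.79 and 7.19 in WT, 7.32 and 7.14 in Neo2/+, 7.07 and 6.98 in Neo/+, 7.63 and 7.38 in +/-, 6.83 and 7.31 in Neo2/Neo2, 7.29 and 7.32 in Neo2/Neo, 7.28 and 7.21 in Neo2/-, 7.37 and 7.13 in Neo/Neo and 6.97 and 7.17 in -/-. WT replicate 1 was the lowest of 18, and the highest value came from the +/- array that stands apart. Hoxb6, a gene of trunk mesoderm, gave 8.06 and 8.24 in WT, 8.13 and 8.29 in Neo2/+, 7.94 and 7.95 in Neo/+, 8.27 and 8.28 in +/-, 7.98 and 8.25 in Neo2/Neo2, 8.49 and 8.53 in Neo2/Neo, 8.57 and 8.01 in Neo2/-, 8.15 and 8.04 in Neo/Neo and 8.24 and 8.15 in -/-, with both Neo2/Neo embryos and Neo2/- replicate 1 above all others.

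Hoxc6, expressed at forelimb and thoracic level, had signals of 7.96 and 7.86 in WT, 7.67 and 7.78 in Neo2/+, 7.45 and 7.62 in Neo/+, 7.93 and 7.80 in +/-, 7.70 and 7.67 in Neo2/Neo2, 7.97 and 7.89 in Neo2/Neo, 7.97 and 7.35 in Neo2/-, 7.43 and 7.43 in Neo/Neo and 7.62 and 7.78 in -/-. Both Neo/Neo embryos and Neo2/- replicate 2 were low, while Neo2/- replicate 1 shared the highest value, so the Neo2/- pair spanned the range of 0.62. The remaining central genes, Hoxa7, Hoxb7, Hoxc5, Hoxc8 and Hoxd8, had SDs of 0.13, 0.21, 0.10, 0.18 and 0.16 over the 18 embryos.

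Posterior genes pattern the lumbar, sacral and tail regions and the limb buds, and at this stage most are still confined to the tail end. Hoxc10, of the lumbar region and hindlimb, read 7.52 and 7.68 in WT, 7.76 and 7.91 in Neo2/+, 7.49 and 8.0 in Neo/+, 7.77 and 7.97 in +/-, 8.24 and 8.42 in Neo2/Neo2, 7.54 and 7.63 in Neo2/Neo, 7.74 and 7.79 in Neo2/-, 7.63 and 7.55 in Neo/Neo and 7.54 and 8.34 in -/-. The 3 highest embryos were again both Neo2/Neo2 embryos and -/- replicate 2. Hoxa10, of the lumbar vertebrae, gave 6.19 and 6.48 in WT, 6.37 and 6.58 in Neo2/+, 6.17 and 6.25 in Neo/+, 6.69 and 6.43 in +/-, 6.36 and 6.28 in Neo2/Neo2, 6.54 and 6.93 in Neo2/Neo, 6.70 and 6.60 in Neo2/-, 6.27 and 6.40 in Neo/Neo and 6.89 and 6.54 in -/-. Here Neo2/Neo replicate 2 and -/- replicate 1 were the 2 highest, and Neo/+ replicate 1 and WT replicate 1 the 2 lowest.

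Hoxb13, a gene of the tail tip, had signals of 4.32 and 4.31 in WT, 4.01 and 3.95 in Neo2/+, 4.02 and 4.09 in Neo/+, 4.18 and 4.08 in +/-, 3.97 and 4.16 in Neo2/Neo2, 4.42 and 4.36 in Neo2/Neo, 4.15 and 4.0 in Neo2/-, 4.42 and 4.28 in Neo/Neo and 4.19 and 4.19 in -/-. All of these lay under 5, and the whole range was 0.48. Hoxd12, of the distal limb bud, was dim as well, at 4.31 and 4.20 in WT, 4.39 and 4.45 in Neo2/+, 4.29 and 4.03 in Neo/+, 4.59 and 4.42 in +/-, 4.10 and 4.43 in Neo2/Neo2, 4.47 and 4.79 in Neo2/Neo, 4.91 and 4.70 in Neo2/-, 4.45 and 4.69 in Neo/Neo and 4.51 and 4.22 in -/-. Hoxd13, the gene at the end of cluster d, which shapes digits and hindgut, read 6.19 and 6.34 in WT, 6.47 and 6.68 in Neo2/+, 6.62 and 6.44 in Neo/+, 6.37 and 6.69 in +/-, 6.75 and 6.54 in Neo2/Neo2, 6.18 and 6.78 in Neo2/Neo, 6.67 and 6.57 in Neo2/-, 6.37 and 6.45 in Neo/Neo and 6.70 and 6.35 in -/-. Its Neo2/Neo embryos lay 0.60 apart and took both the lowest and the highest value of the 18. Hoxb9 varied most among posterior genes, from 7.18 in -/- replicate 1 to 8.41 in -/- replicate 2.

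Each mutant genotype was compared with WT, which asks whether Hox transcript levels differ with the Tbx1 genotype. No Hox gene passed in any of the 8 comparisons, and all 8 share the 2 WT embryos. Not every mutant genotype had a lower Tbx1 signal. It was 6.59 and 6.50 in Neo2/+ and 6.62 and 6.62 in Neo2/Neo2, beside 6.54 and 6.63 in WT. In +/- against WT, 0 of 33 passed (all probe sets 0%), and 4 had an unadjusted p under 0.05 (12.1%, against 11.7% of all). The largest difference was that of Hoxd1, 0.96 (SE 0.25, adjusted p = 0.390). Neo2/+ gave 0 of 33 (all 0%) and Neo/+ 0 of 33 (all 0.0311%), with Hoxb13, under 5 in every embryo, the gene of smallest p in both, at -0.33 (adjusted p = 0.664) and -0.26 (adjusted p = 0.602). Unadjusted, 1 and 3 Hox genes had a p under 0.05, or 3.03% and 9.09%, against 6.51% and 7.36% of all probe sets.

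Among genotypes without a wild-type allele, -/- had 0 of 33 called (all probe sets 0.0311%). Unadjusted, 7 Hox genes had a p under 0.05 (21.2%, against 15.1% of all). Hoxd1 differed from WT by 1.00 (SE 0.25, adjusted p = 0.135), Hoxb1 by 0.57 (SE 0.37, adjusted p = 0.503) and Hoxa3 by -0.36 (SE 0.16, adjusted p = 0.299). The Hoxb1 value turned to -0.24 without -/- replicate 2, and was 1.39 (adjusted p = 0.0437) without the 2 arrays that stand apart, which leaves 1 -/- embryo, so that 1 embryo decides it. That single embryo is assumed to vary like the other groups.

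In Neo2/Neo2 against WT, 0 of 33 passed (all 0.00222%), with 5 at an unadjusted p under 0.05 (15.2%, against 11.6% of all). Hoxd1 stood at 1.43 (SE 0.25, 2.70-fold, adjusted p = 0.166), Hoxb1 at 1.39 (SE 0.37, adjusted p = 0.206) and Hoxc10 at 0.73 (SE 0.22, adjusted p = 0.246). Without the 2 arrays that stand apart, 3 Hox genes passed, Hoxb1 (adjusted p = 0.0153), Hoxd1 (adjusted p = 0.0179) and Hoxc10 (adjusted p = 0.0374), where 2.02% of all probe sets did. Both WT embryos were female and both Neo2/Neo2 embryos male, so sex and genotype cannot be told apart between these 4. With sex fitted as a covariate over all embryos the adjusted p of Hoxd1 was 0.661 and that of Hoxb1 0.768.

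Neo2/Neo gave 0 of 33 (all 0.00222%), with Hoxb3 of smallest p at 0.39 (SE 0.13, adjusted p = 0.613), and Neo2/- gave 0 of 33 (all 0.00222%), with Hoxd12, also under 5 in every embryo, at 0.55 (SE 0.16, adjusted p = 0.782). Neo/Neo also gave 0 of 33 (all 0.0822%), with Hoxc6 at -0.48 (SE 0.16, adjusted p = 0.518). Unadjusted counts were 5, 4 and 2, or 15.2%, 12.1% and 6.06%, against 6.72%, 6.28% and 7.01% of all probe sets. The median over the 33 genes lay between -0.04 in Neo/+ and 0.16 in Neo2/- over the 8 comparisons, against -0.02 to 0.04 for all probe sets. Posterior medians lay between -0.04 and 0.24, anterior ones between -0.03 and 0.18 and central ones between -0.13 and 0.15. The 2 highest posterior medians were those of +/- (0.24) and -/- (0.23), followed by Neo2/Neo (0.19). In single embryos, the posterior genes were summarised by the median of their deviations from their means over all arrays. It was 0.15 in +/- replicate 1, which stands apart, and 0.03 in +/- replicate 2. In -/- it was 0.09 in replicate 1, which stands apart, and higher, 0.16, in replicate 2. Both WT embryos, which enter every comparison, lay low, at -0.15 and -0.06. The part of single arrays in these medians was not tested.

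Pooled comparisons took Tbx1 dosage across genotypes. Between the 10 embryos with 0 and the 6 with 1 wild-type allele, 0 of 33 Hox genes passed (all probe sets 0%), and 1 had an unadjusted p under 0.05, Hoxb13, at 0.16 (SE 0.07, adjusted p = 0.888). All 33 differences lay between -0.26 and 0.16. Along the Tbx1 signal of the same embryo, 0 of 33 slopes passed (all 0%), and 1 had an unadjusted p under 0.05, Hoxa5, at -0.17 per unit of log2 Tbx1 signal (SE 0.08, adjusted p = 0.563). The slope of Hoxb1 was 0.33 (SE 0.22, adjusted p = 0.626) and that of Hoxd1 0.11 (SE 0.19, adjusted p = 0.858).

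Neo2/Neo2 was also compared with Neo2/Neo, which like it lacks a wild-type allele. Neo2/Neo2 embryos had higher Hoxb1 and Hoxd1 and lower Hoxb3 and Hoxa5 than Neo2/Neo embryos. This pair was chosen because earlier results of these data had placed it at opposite ends of many genes, so its p-values are no independent evidence. In limma's test 4 of 33 Hox genes passed (12.1%), where 2.65% of all probe sets did. The 2 higher ones stand beside 0.970% of all probe sets and the 2 lower ones beside 1.68%. Hoxb1 was higher by 1.93 (SE 0.37, 3.82-fold, adjusted p = 0.0225) and Hoxd1 by 1.42 (SE 0.25, 2.68-fold, adjusted p = 0.0192). Hoxb3 fell by 0.66 (SE 0.13, 1.58-fold, adjusted p = 0.0225) and Hoxa5 fell by 0.66 (SE 0.16, 1.58-fold, adjusted p = 0.0445). For each of the 4, both Neo2/Neo2 embryos lay on 1 side of both Neo2/Neo embryos. As the test picked these genes from the same arrays, this adds no support, and its share over all probe sets was not counted.

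**Figure D3:**
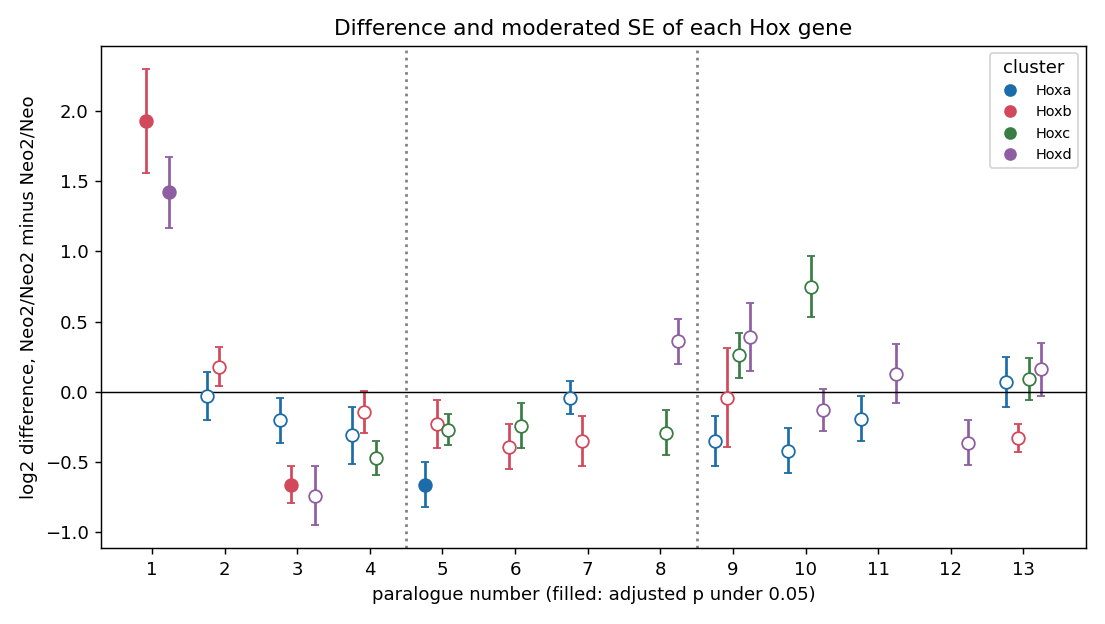
Log2 difference of Neo2/Neo2 minus Neo2/Neo for the 33 measured Hox genes by paralogue number, coloured by cluster, with limma's moderated SE as bars and filled points for an adjusted p under 0.05. Hoxb1 (1.93) and Hoxd1 (1.42) lie above all others. The 13 genes of groups 3 to 7, a stretch set after the differences were seen, all lie below 0.

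By paralogue number the differences at the brightest probe sets ran in stretches. Their limits were set after the differences were seen, so the shared sign within a stretch is no independent evidence. In groups 3 to 7, Hoxb7 had a mean under 5, and the dimmer probe sets of Hoxa3 stood at 0.13, -0.04 and 0.04. Both genes of group 1 were higher, Hoxa2 and Hoxb2 stood near 0 (-0.03 and 0.18), and all 13 genes of groups 3 to 7 had negative differences, from -0.74 to -0.04. From group 8 on the signs were mixed, with both directions among the genes of groups 8 to 11 and 13. The median was -0.17 over the anterior, -0.27 over the central (8 of 9 negative) and 0.02 over the posterior genes (7 of 14 negative). Over all 33 it was -0.19, with 22 negative, against 0.04 over all probe sets. Cluster a had 8 of 9 negative, cluster b 7 of 9, cluster c 4 of 7 and cluster d 3 of 8. Among genes that did not pass, Hoxc4 stood at -0.47 (SE 0.12, adjusted p = 0.0595), Hoxd3 at -0.74 (SE 0.21, adjusted p = 0.0837), Hoxc10 at 0.75 (SE 0.22, adjusted p = 0.0910) and Hoxb13 at -0.33 (SE 0.10, adjusted p = 0.0971).

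In single embryos, the genes of groups 3 to 6 were summarised by the median of their deviations from their means over the 18 arrays. This range of groups was picked with the differences known. The median was -0.22 and -0.04 in Neo2/Neo2, 0.26 and 0.25 in Neo2/Neo, and 0.29 and -0.05 in Neo2/-. Replicate 2 of Neo2/Neo2 thus lay close to the mean of all embryos, and Neo2/- replicate 1 as high as the Neo2/Neo embryos. Posterior genes gave medians of 0.05 and -0.01 in Neo2/Neo2 and -0.09 and 0.23 in Neo2/Neo, which overlap.

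The calls for Hoxb3 and Hoxa5 rest on 1 of 2 probe sets. The dimmer probe set of Hoxb3 differed by -0.04 (SE 0.14, adjusted p = 0.918) and that of Hoxa5 by -0.05 (SE 0.12, adjusted p = 0.900), and averaging the probe sets of a gene gave -0.35 (adjusted p = 0.0999) and -0.36 (adjusted p = 0.0509). Hoxb1 and Hoxd1 have 1 probe set each. Hoxd8 stood at 0.36 and 0.47 on its 2 probe sets and Hoxc5 at -0.27, -0.41 and -0.16 on its 3, none of which passed. The dimmer probe set of Hoxa4, with a mean of 3.39, passed at -0.38 (SE 0.09, adjusted p = 0.0486), while its brighter one stood at -0.31 (adjusted p = 0.464). On the averaged probe sets 3 Hox genes passed, Hoxb1, Hoxd1 and Hoxc4 (-0.47, adjusted p = 0.0382), where 4.24% of all genes did. With embryo sex as a covariate, 1 Hox gene remained, Hoxd1 (1.47, adjusted p = 0.0377), where 0.722% of all probe sets passed, and Hoxb1 (1.91) had an adjusted p of 0.0528. Without any 1 of the 4 arrays compared, 0 Hox genes passed, and of all probe sets 0% to 0.675% did, so few features of any kind could pass. Hoxb1 kept a difference of 1.86 to 2.01 and Hoxd1 one of 1.38 to 1.47. Without the 2 arrays that stand apart, 8 passed, where 11.1% of all probe sets did. They were the 4 genes above with Hoxc4 (adjusted p = 0.0191), Hoxd3 (adjusted p = 0.0329), Hoxb13 (adjusted p = 0.0439) and Hoxc10 (adjusted p = 0.00974), at the differences already given.

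Genes around the Hox system were read in the same comparison, in which 0.970% of all probe sets were called higher in Neo2/Neo2 and 1.68% lower. Of the upstream regulators of the trunk, 3 of 9 measured were higher in Neo2/Neo2 and 0 lower. Cdx2, which activates trunk Hox genes, was higher by 1.64 (SE 0.32, adjusted p = 0.0230). Its relative Cdx4 read 5.62 and 6.07 in Neo2/Neo2 against 3.50 and 3.25 in Neo2/Neo (adjusted p = 0.0225), and Nkx1-2, of the caudal stem zone, 6.69 and 6.96 against 4.48 and 4.73 (adjusted p = 0.0497). The Neo2/Neo signals of both lay under 5, where they cannot be told from background, so the sizes of these differences are not given. The same holds for Cdx1 (adjusted p = 0.0670). In the embryos Cdx2 read 5.61 and 6.11 in WT, 5.58 and 6.84 in -/-, 5.67 and 5.81 in Neo2/Neo and 7.27 and 7.48 in Neo2/Neo2. Of the -/- embryos, replicate 1 lay below and replicate 2 above both WT embryos, as for Hoxb1.

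Of the retinoic acid genes 1 of 11 measured was higher and 0 lower. It was Aldh1a3, an enzyme that makes retinoic acid, at 2.19 (SE 0.40, adjusted p = 0.0206). The receptor gene Rarb stood at -0.51 (SE 0.14, adjusted p = 0.0685). Among Hox cofactors 1 of 8 was lower, Meis2, at -0.43 (SE 0.09, adjusted p = 0.0250), and Pknox2 stood at 0.59 (adjusted p = 0.0964). Of the hindbrain segmentation genes 1 of 5 was lower, Epha4, a receptor of odd-numbered hindbrain segments, at -0.62 (SE 0.13, adjusted p = 0.0296), and Egr2, the factor that specifies those segments, had signals under 5 in all embryos (adjusted p = 0.105). Of 12 Polycomb and trithorax genes and 10 genes beside or within the clusters, 0 and 0 passed. The nearest in each were Suz12, a Polycomb subunit, at -0.26 (adjusted p = 0.132), and Skap2, a neighbour of cluster a, at 0.38 (adjusted p = 0.0586). In the other 11 comparisons, 0 genes of these lists passed.

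Genes that change as the embryo matures differed in the same comparison. Of 13, 1 was higher in Neo2/Neo2 and 5 lower, where 0.970% and 1.68% of all probe sets were. The higher one was Lin28a, an RNA-binding protein of early embryonic cells, at 2.33 (SE 0.47, adjusted p = 0.0270). The lower ones were neuronal, among them Elavl3 at -1.98 (SE 0.29, adjusted p = 0.0129), Nefm at -2.54 (SE 0.44, adjusted p = 0.0178) and Tubb3 at -1.91 (SE 0.36, adjusted p = 0.0224). The mean signal of the 13 genes was 9.57 and 9.53 in Neo2/Neo2 and 10.55 and 10.63 in Neo2/Neo, within 9.5 to 10.63 over all embryos. This mean takes in genes called in both directions, so it is no measure of maturity. The part of these 13 genes in the Hox differences was not tested.

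Some markers of tissues differed as well, in the comparison where 2.65% of all probe sets were called. The 5 measured tail bud genes had a mean signal of 6.92 and 6.90 in Neo2/Neo2 and 5.89 and 5.98 in Neo2/Neo, with 1 of 5 called, Nkx1-2. The 5 genes of yolk sac endoderm had 6.19 and 6.84 against 7.97 and 7.88, with 1 of 5 called, Afp, lower by 3.39 on the log2 scale (difference -3.39, SE 0.62, adjusted p = 0.0208). Neural tube and neuron genes had 7.97 and 8.20 against 8.62 and 8.64, with 1 of 6 called, Tubb3, and somite and myotome genes 7.49 and 7.68 against 7.82 and 7.82, with 1 of 5 called, Myf5. Of heart, blood, limb bud, and placenta and decidua genes, 0 of 4, 0 of 3, 0 of 6 and 0 of 3 passed. Limb bud genes, which share tissue with the posterior Hox genes, had 7.04 and 7.01 against 6.72 and 6.81. The part of these tissues in the Hox differences was not tested.

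Across all 18 embryos, the Hoxb1 signal lay close to a line against genes of the early embryo, while its relation to Tbx1 did not pass. Of 9 relations, picked after the values were seen, Hoxb1 with Lin28a had a Pearson's r of 0.96 and a Spearman's rho of 0.96 (permutation p = 1.0e-05 for each, the smallest that 100000 permutations can give, adjusted p = 1.5e-05 and 2.2e-05). For all 9 relations the permutations shuffled the 18 embryos freely, although 2 embryos share each genotype. As the pairs were also picked from these values, their p-values are no independent evidence. Leaving out the 2 embryos farthest in Lin28a gave an r of 0.95, and leaving out the 2 arrays that stand apart 0.96. With Nkx1-2, which lies under 5 in some embryos, the r was 0.93 (rho 0.93) and with Cdx2 0.88 (rho 0.87), or 0.89 and 0.85 without the 2 farthest embryos. With the neuronal gene Elavl3 it was -0.86 (rho -0.81), or -0.80 without the 2 farthest. The relation of Hoxb1 to Tbx1 had an r of 0.33 (permutation p = 0.178, adjusted p = 0.178) and a rho of 0.36 (permutation p = 0.145, adjusted p = 0.145), and an r of 0.17 without the 2 farthest.

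Among the Hox genes themselves, Hoxb1 and Hoxd1 had an r of 0.87 (rho 0.80, 0.81 without the 2 farthest), and Hoxb1 and Hoxb3 one of -0.74 (rho -0.69, -0.62 without the 2 farthest). Hoxd1 with Lin28a had 0.83 (rho 0.83, 0.81 without the 2 farthest), and Hoxb3 with Elavl3 0.88 (rho 0.87, 0.86 without the 2 farthest). Permutation p-values of these 4 for r were 1.0e-05, 6.1e-04, 2.0e-05 and 1.0e-05, and adjusted over the 9 relations 1.5e-05, 6.9e-04, 2.6e-05 and 1.5e-05. Both relations of Hoxb3 hold for the brighter of its 2 probe sets. The dimmer one read 7.92 and 8.09 in Neo2/Neo2 and 7.96 and 8.13 in Neo2/Neo, and its relations were not tested. Within genotypes, the 2 embryos differed in the same direction in Hoxb1 and Lin28a in 8 of 9 pairs, in Hoxb1 and Cdx2 in 7 of 9, in Hoxb1 and Hoxd1 in 5 of 9 and in Hoxb1 and Tbx1 in 5 of 9. No batch is given in the labels, so no value within batches can be given.

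**Figure D4:**
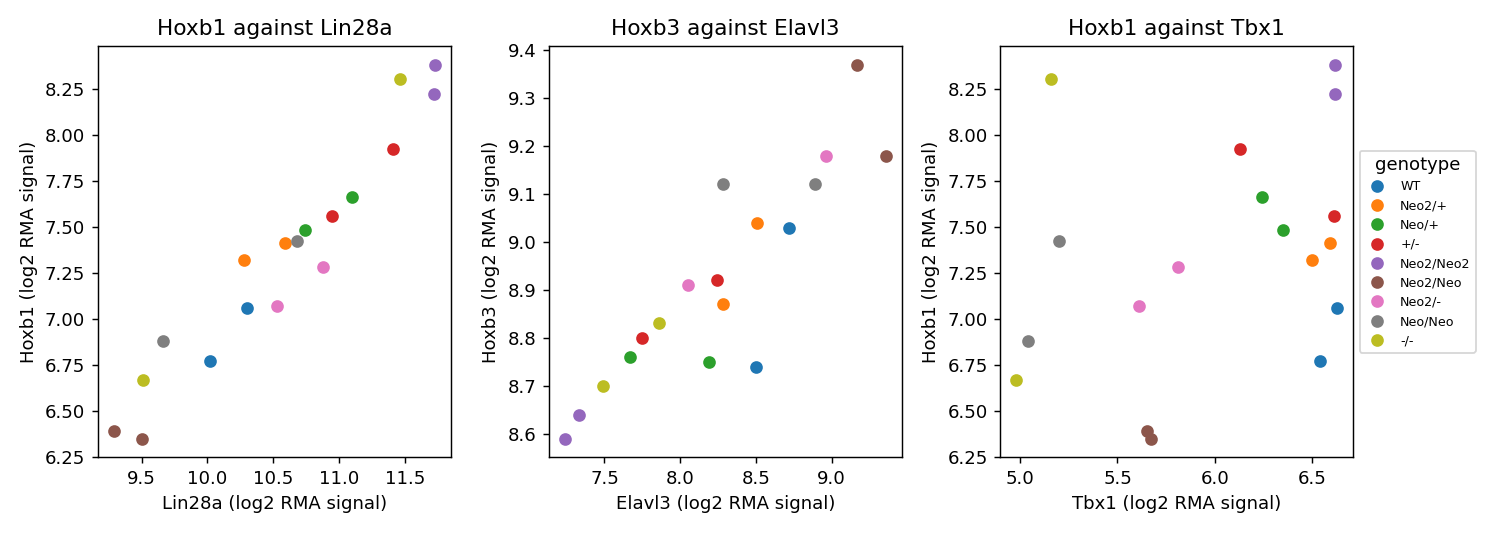
Log2 RMA signals of 18 embryos (points, coloured by Tbx1 genotype) for Hoxb1 against Lin28a, Hoxb3 against Elavl3 and Hoxb1 against Tbx1. The first pair lies along a line (r = 0.96), the second likewise (r = 0.88, Hoxb3 at the brighter of its 2 probe sets). In the third (r = 0.33), Hoxb1 ran from 6.77 to 8.38 where the Tbx1 signal was 6.13 or more. Where Tbx1 was 5.81 or less, Hoxb1 ran from 6.35 to 7.42, except for 8.30 in -/- replicate 2.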

How the data were processed

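Expression was measured in 18 whole mouse embryos on Affymetrix Mouse Genome 430 2.0 arrays, from 6 ug of total RNA per array. The deposited values are log2 probe set signals that the authors made by RMA in the affy package, per the submitters' processing notes, with no version given in the sources used here. They were used as deposited, for 45037 probe sets, with no filter. The annotation gave 1 gene symbol to 34945 probe sets, several to 932 and none to 9160. A gene was read at its brightest probe set with 1 symbol.

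A fit of 9 genotype means with limma 3.58.1 in R 4.3.3 (lmFit, eBayes, 9 residual and 3.63 prior degrees of freedom) gave a moderated F-test, 8 comparisons with WT and 1 of Neo2/Neo2 with Neo2/Neo. Fits by the number of wild-type alleles and on the Tbx1 signal completed 12 comparisons. Tests were two-sided, p-values were adjusted by Benjamini-Hochberg over all probe sets, and a gene was called at an adjusted p under 0.05. The scripts were tested on simulated data. SE is limma's moderated standard error. Precision is limited by the number of arrays.

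Named with every embryo's value were, in each paralogue class, the 4 genes of smallest F-test p, every gene called, and Hoxa2, Hoxa3, Hoxb1 and Hoxd13. Of each other list up to 4 genes of smallest F-test p were named. The members, the lists and the tests were chosen with earlier results of these data known. Alternatives were a replicate block, aligned array medians, a filter on probe sets with a mean under 5, an intensity trend, array weights, sex as a covariate, the mean of a gene's probe sets, leaving out 2 arrays that stand apart, and leaving out each of 18 arrays in turn. Sex was called from sex-linked transcripts. Correlations were tested with 100000 permutations of the 18 embryos, without regard to genotype. Promoter sequences are from RefSeq (GRCm38.p6).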

Additional observations from a re-analysis of the deposited data

Results flagged for a closer look

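Hoxa3 in -/- replicate 1 had a log2 signal of 6.35, below the other 9 embryos without a wild-type allele, of which the nearest read 6.75. The gap was 0.58 of the range of the group, above Dixon's 95% critical value for 10 samples. This was 1 of 30 groups examined over the 15 named Hox genes, and chance puts about 1 in 20 groups past such a limit. The array is also 1 of the 2 whose correlation with the other arrays was lowest. The value is that of the brightest of 4 probe sets of Hoxa3. The next brightest read 6.37 and 6.60 in -/- and 6.37 and 6.66 in WT.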

How the results depend on the processing

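Of the single-gene values of the named Hox genes under the alternatives, 1037 kept their direction and their side of the threshold, 37 passed only under the alternative, 30 passed only as reported and 6 changed sign. Of the counts of called genes, 294 stayed within 1.5 times and 18 did not. With array weights the F-test gave 3 Hox genes (all probe sets 2.96%), Neo2/Neo2 against WT 1 (Hoxd1, all 0.0266%) and Neo2/Neo2 against Neo2/Neo 10 (all probe sets 15.1%). Without the 2 arrays that stand apart these were 2, 3 and 8 (all 2.77%, 2.02% and 11.1%), and -/- against WT gave 1 (all 0.144%). With sex as a covariate Neo2/Neo2 against Neo2/Neo gave 1 (all 0.722%). Leaving out single arrays gave 0 to 2 in the F-test, 0 to 2 in Neo2/Neo2 against WT (2 without either -/- array, all 0.0999%), 0 to 1 in -/- against WT and 0 to 6 in Neo2/Neo2 against Neo2/Neo (6 without a +/-, Neo2/- or -/- array, all 2.46% to 6.26%, and 0 without any of its 4 arrays, all 0% to 0.675%). The 1 was Hoxa3 without -/- replicate 2 (-0.60, adjusted p = 0.0262), where 11.4% of all probe sets passed. It rests on the brightest of 4 probe sets and on the -/- array that stands apart. The spread of that 1 embryo is assumed to be that of the other groups. The cause was not tested. Sign changes in Neo2/Neo2 against Neo2/Neo were those of Hoxa2 (0.04 with medians aligned, and -0.13 to 0.08 when single arrays were left out), Hoxb5 (-0.47 to 0.00, the highest without replicate 1 of Neo2/Neo2) and Hoxd13 (-0.14 to 0.46, the lowest without replicate 1 of Neo2/Neo), none of them called. Hoxb1 in -/- against WT ran from -0.24 (without -/- replicate 2) to 1.39 (without -/- replicate 1). In Neo2/Neo2 against Neo2/Neo, over 26 alternatives, Hoxd1 passed in 22, Hoxb1 in 21, Hoxb3 in 20 and Hoxa5 in 11. Aligning the medians moved the median of all probe sets from 0.04 to 0.10, where Hoxa5 stood at -0.60 (adjusted p = 0.0653).

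With the replicate number as a block, Neo2/Neo2 against Neo2/Neo gave 5 Hox genes (all 3.24%), with Hoxc10 added (0.75, adjusted p = 0.0437), and every other comparison gave 0. The numbers do not pair the embryos, since the deviations of same-numbered embryos correlated between -0.26 and 0.19 over 36 pairs of genotypes, with 9 over 0.1. Precision is limited by 2 embryos per genotype and by 5 Hox genes with a mean signal under 5.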

Other observations

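Opposite-strand transcripts of the clusters, chosen after their values were seen, gave a further readout. The probe set annotated with Hoxb5os, a non-coding RNA on the strand opposite Hoxb5, read 10.68 and 10.49 in WT, 10.88 and 11.29 in -/-, 10.08 and 10.06 in Neo2/Neo and 10.98 and 11.16 in Neo2/Neo2. It was higher in Neo2/Neo2 than in Neo2/Neo by 1.00 (SE 0.17, adjusted p = 0.0169, limma). Hoxb5 and Hoxb6 themselves stood at -0.23 (adjusted p = 0.547) and -0.39 (adjusted p = 0.206) in that comparison. Hoxd3os1 stood at -0.25 (SE 0.28, adjusted p = 0.715), where Hoxd3 was at -0.74, and Hoxa11os at -0.10 (SE 0.15, adjusted p = 0.803).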
